A study of Mus musculus with 3 samples.

Results

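The 36 genes described here encode proteins of the lysosome's limiting membrane and the vacuolar proton pump (v-ATPase), with the lysosomal protein progranulin (Grn) beside them. They were listed by symbol, with earlier results of these data known, and all 36 were rows of the 31053-gene count tables. Of them, 18 encode v-ATPase subunits or accessory proteins. The other 18 encode structural membrane proteins, transporters, channels and their partners, and other lysosomal proteins, progranulin among them. The data are single-cell RNA counts of hippocampal cells from aged wild-type mice of the C57BL/6 strain, labelled as 2-year-old, with 3 libraries of 10x Chromium 3′ chemistry. The tissue was digested with papain and myelin was removed with beads, and no animal carried a transgene or a treatment in the labels. The libraries are replicates 1, 2 and 3 of a single group, so the comparisons lie between cell classes within the libraries. The series text counts 6 hippocampi without tying animals to libraries. The p-values rest on how the differences between classes vary from library to library, a spread that may be technical. The title of replicate 3 alone carries an age in months, 25, beside the shared 2-year-old label, and no age comparison was made.

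A cell barcode (the tag of a droplet) was placed in a class when all 3 of that class's marker RNAs were detected and no other class had all 3. The markers were Cldn5, Flt1 and Pecam1 for endothelial cells, Slc1a2, Aqp4 and Gja1 for astrocytes, and Cx3cr1, P2ry12 and C1qa for microglia. Those of border macrophages, which live in the meninges and around vessels, were Mrc1, Pf4 and F13a1. Those of ependymal cells, the ciliated lining of the ventricles, were Ccdc153, Tmem212 and Foxj1, and those of oligodendrocyte precursor cells (OPC) were Pdgfra, Cspg4 and C1ql1. No member of the 36 is among these markers. Counts of unique molecular identifiers (UMIs, counted RNA molecules) were summed per library and class, and levels are counts-per-million (CPM) of that sum, a share of a class's RNA that does not give RNA per cell.

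Lysosomes are acid compartments in which hydrolases break down proteins, lipids and sugars delivered by endocytosis, phagocytosis and autophagy. Their lumen is acidified by the v-ATPase, whose V1 sector hydrolyses ATP in the cytosol and turns the membrane-embedded Vo sector that moves protons. Heavily glycosylated membrane proteins line the limiting membrane, and transporters export the amino acids, sugars, cholesterol and ions set free inside. Some of these genes carry a promoter motif, an E-box with the core CACGTG, which is bound by the transcription factors TFEB, TFE3 and MITF. In the brain, microglia and border macrophages are the professional phagocytes, and inherited loss of several of these genes causes lysosomal storage disease.

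The 3 libraries held 45716237, 7185668 and 40377042 UMIs in 7241, 1062 and 6456 barcodes, and any 2 libraries shared 2 to 12 barcode sequences. After filters on depth, mitochondrial RNA and doublets, 69.9%, 61.6% and 66.3% of the kept barcodes of replicates 1, 2 and 3 fell in a class. Endothelial cells had 2235, 397 and 1605 barcodes, astrocytes 1072, 69 and 637, microglia 782, 91 and 748, and OPC 124, 10 and 79. Border macrophages had 74, 7 and 36 barcodes and ependymal cells 76, 8 and 163, so replicate 2 fell below the minimum of 10 barcodes in both and gave neither a level nor a test there. In the 10 OPC barcodes of replicate 2, a single UMI is worth 13.7 CPM, and 3 UMIs, the most that a count of 0 allows for counting error alone, 41.1. In ependymal cells of replicates 1 and 3 a single UMI is worth 2.96 and 1.31 CPM, so levels of a few CPM there rest on few UMIs. Each class was highest in its own check markers, which had not been used to set it. Check markers of microglia summed to 8159 to 9556 CPM in microglia and 1717 to 2674 in border macrophages, and haemoglobin and other erythrocyte RNA to 10664 to 18287 in endothelial cells against 85.2 to 1903 elsewhere. Fibroblast markers summed to 534 in the astrocytes of replicate 2 against 16.9 and 11.4 in those of replicates 1 and 3, and neuronal markers to 631 to 1356 in OPC. The part of these RNAs in the results was not tested.

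A further 146, 18 and 269 barcodes of replicates 1, 2 and 3 held all 3 markers of both astrocytes and ependymal cells and were left out of both classes. They outnumbered the ependymal class, and their median depth was 10000, 14060.5 and 11987 UMIs against 3443, 1256 and 2999 in that class. The sums, the counts of calls and the fitted changes of named genes are given below with these barcodes too, and the levels of single genes without them. That alternative was chosen after seeing the data.

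The E-box motif is shown first, because it is a feature of the promoters that does not rest on RNA levels. RefSeq promoter windows (build GRCm38.p6) were matched for 29 of the 36 members, and only the 250 bases upstream of each annotated start were searched. CACGTG, a palindrome and so the same on both strands, stood in 7 of the 29 (24.1%), against 9.83% of the 9386 tested genes with a window and 6.86% of all 27025 genes in the table. Its longer form TCACGTGA, which contains it, stood in 4 of the 29 (13.8%), against 1.73% and 0.907%. These shares are descriptions, and a match of letters is not a measured binding site. Stretches of 6 of the promoters follow, 5′ to 3′ on the strand of the gene, with each CACGTG in capitals, because they show how the motif repeats.
Lamp1: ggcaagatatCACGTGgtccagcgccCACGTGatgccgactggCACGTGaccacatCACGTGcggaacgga
Mcoln1: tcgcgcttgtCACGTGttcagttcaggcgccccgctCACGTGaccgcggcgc
Atp6v0b: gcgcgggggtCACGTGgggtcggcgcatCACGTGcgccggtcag
Cln3: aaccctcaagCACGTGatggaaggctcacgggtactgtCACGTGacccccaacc
Clcn7: cgtcgtcagtCACGTGggcaccgat
Atp6v1a: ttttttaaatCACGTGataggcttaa
The Lamp1 stretch (chr8:13159090-13159160, plus strand) ended at the last base before the start site and held 4 copies, more than any of the others shown. The stretches of Mcoln1 (chr8:3500438-3500489, plus strand), Atp6v0b (chr4:117887332-117887375, minus strand) and Cln3 (chr7:126583342-126583395, minus strand) held 2 copies each. Those of Clcn7 (chr17:25133366-25133390, plus strand) and Atp6v1a (chr16:44139375-44139400, minus strand) held 1. Tmem55b, the seventh gene, held 2 copies farther apart and is not printed.

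Summed over all 36 genes, border macrophages had the highest level in CPM and endothelial cells the lowest. The sum was 9169 and 8793 CPM in border macrophages of replicates 1 and 3 and 6575, 6272 and 7173 in microglia of replicates 1, 2 and 3. It was 4341, 4794 and 4342 in OPC, 4849, 4792 and 5242 in astrocytes, 5017 and 4996 in ependymal cells of replicates 1 and 3, and 3069, 2789 and 3134 in endothelial cells. Microglia and border macrophages overlapped with no other class and not with each other, while astrocytes, ependymal cells and OPC lay within a narrow band. As means, border macrophages stood at 8981 ± 266 (SD, n = 2), microglia at 6673 ± 458 (SD, n = 3), ependymal cells at 5006 ± 14.5 (SD, n = 2), astrocytes at 4961 ± 245 (SD, n = 3), OPC at 4492 ± 262 (SD, n = 3) and endothelial cells at 2997 ± 183 (SD, n = 3). With the astrocyte and ependymal double barcodes counted as ependymal, that class stood at 4993 in place of 5006.

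In CPM the proton pump genes and the other 18 genes, Grn included, did not rank the classes alike. The 18 v-ATPase genes summed to 2323, 2411 and 2258 in OPC, above 1838, 1816 and 1935 in astrocytes and 1821 and 1827 in ependymal cells with no overlap. The 18 other genes were in the reverse order, at 2018, 2383 and 2084 in OPC, 3011, 2976 and 3307 in astrocytes and 3195 and 3169 in ependymal cells. In endothelial cells the pump genes made up the larger part, 1560.2 ± 88.5 (SD, n = 3) against 1437 ± 94.8 (SD, n = 3) for the other 18, and in border macrophages the smaller, 3247 ± 173 (SD, n = 2) against 5734 ± 93.5 (SD, n = 2). These orders belong to the CPM scale and in part turn on the scale of the test, TMM, which sets each profile by the bulk of its genes rather than by its total. There the v-ATPase sum was 1587 ± 98.6 (SD, n = 3) in OPC, 1794 ± 134 (SD, n = 3) in astrocytes and 1649 ± 42.5 (SD, n = 2) in ependymal cells, so that OPC had the lowest mean of the 3 with libraries that overlapped with both, and the sum of the other 18 genes was 1467 ± 7.15 (SD, n = 3), 2985 ± 292 (SD, n = 3) and 2877 ± 50.3 (SD, n = 2).

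TMM also moved the order of single genes. On that scale the sum of all 36 genes was 10279 ± 2434 (SD, n = 2) in border macrophages, 9730.0 ± 1226 (SD, n = 3) in microglia and 3054 ± 95 (SD, n = 3) in OPC, which then had the lowest mean. The class with the highest mean changed for 19 of the 36 genes. It passed from border macrophages to microglia for Atp6ap2, Atp6v0b, Atp6v0c, Atp6v0e, Atp6v1a, Atp6v1g1, Ctns, Lamp2 and Tmem55b. It passed from OPC to microglia for Atp6v0d1 and Atp6v1h, to border macrophages for Atp6v1b2, Mcoln1 and Slc17a5, and to ependymal cells for Atp6v0e2. Atp6v0a2, Atp6v1e1 and Scarb2, highest in astrocytes in CPM, and Atp6v1d, highest in ependymal cells, were then highest in microglia. The lowest class changed for 10, to OPC for Atp6ap2, Atp6v1e1, Atp6v1f, Atp6v1g1, Lamp1, Laptm4a, Scarb2 and Tmem192 and to ependymal cells for Atp6v0b and Atp6v1b2. Levels and orders below are in CPM, and fitted changes are on the TMM scale. The shares of paralogue pairs are free of this choice.

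**Figure D1:**
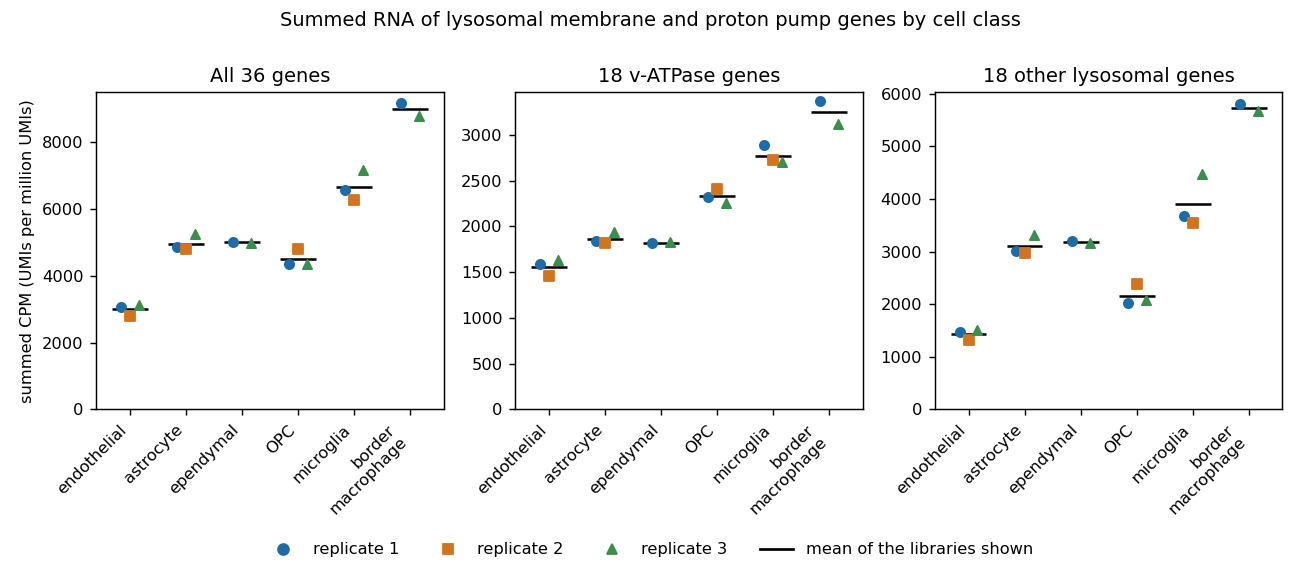
Summed CPM (y axis, linear from 0) of all 36 genes, the 18 v-ATPase genes and the 18 other lysosomal genes in 6 cell classes (x axis), with a point for each library and a line at the mean of the libraries shown. In CPM border macrophages are highest and endothelial cells lowest in each panel, and OPC lie above astrocytes for the v-ATPase, an order that turns with TMM scaling, and below them for the other genes.

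The level of 34 of the 35 members tested differed between the 6 classes at an adjusted p under 0.05, where 91.7% of the 12277 tested genes also did, so the count says little about these genes. The member not called was Slc17a5 (sialin, the exporter of sialic acid), with an adjusted p of 0.38 and class means of 9.52 to 19.7 CPM. Atp6v0c, which encodes the proteolipid of the Vo ring, failed the filter on low counts and was not tested. The range between the highest and the lowest class, on the fitted log2 scale, had a median of 2.21 over the 35 members and 3.12 over all tested genes. The widest ranges were those of Grn, Cd63, Atp6v0e2, Atp6v1c1 and Clcn7, leaving out Atp6v1g2, whose range is taken against a class with no UMI and depends on the prior count of the fit.

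**Figure D2:**
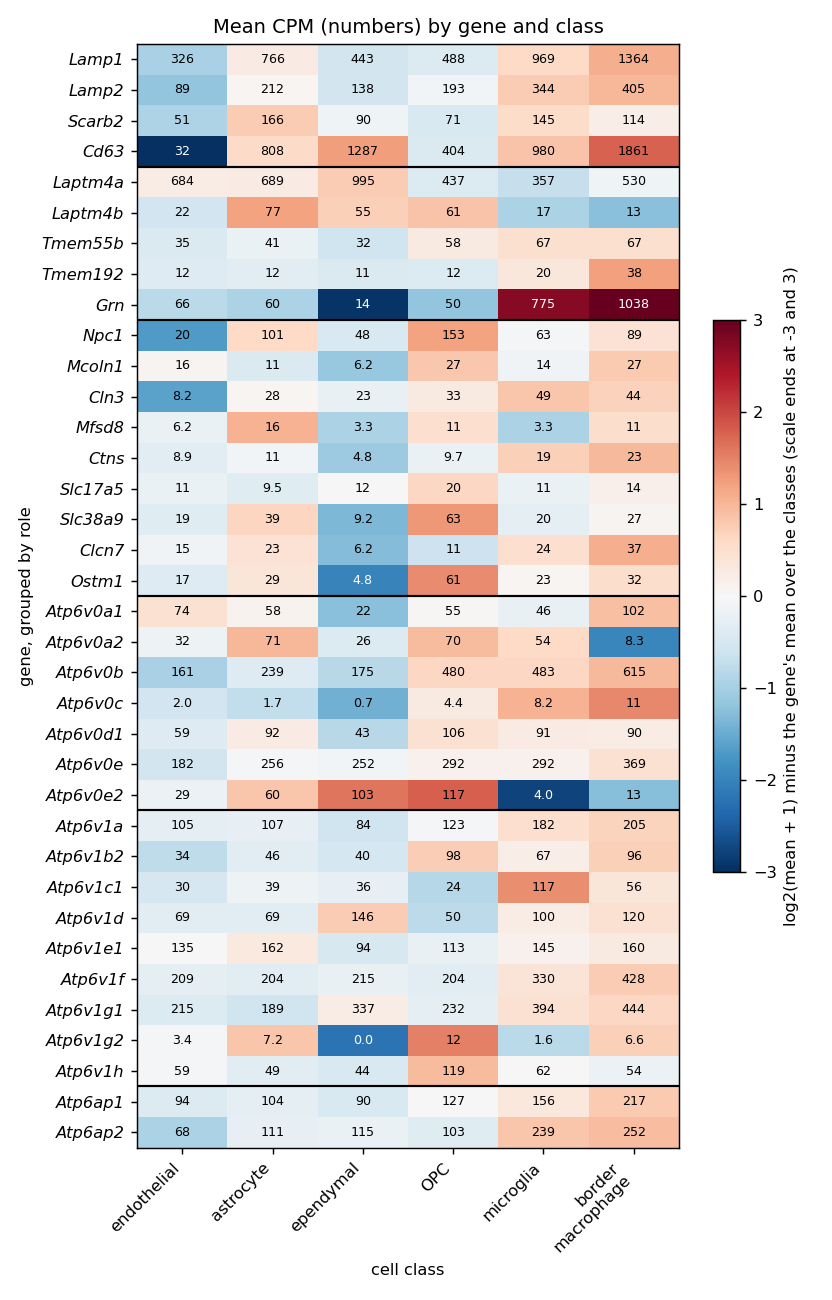
Mean CPM of each of the 36 genes (rows, grouped by role with black lines between roles) in 6 cell classes (columns), printed in each cell, with colour for log2(mean + 1) minus the gene's own mean over the classes. Most rows are red in the 2 macrophage columns on the right. Among the exceptions, Atp6v0e2 and Laptm4b lie below their own mean in microglia and border macrophages, and Atp6v0a2 in border macrophages only.

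Progranulin, a secreted glycoprotein that is cut into granulins in the lysosome and whose loss causes frontotemporal dementia or a storage disease in humans, separated the classes most. Grn stood at 972 and 1103 CPM in border macrophages of replicates 1 and 3 and at 696, 654 and 977 in microglia of replicates 1, 2 and 3. It stood at 55.1, 60.8 and 81.1 in endothelial cells, 55.3, 60.8 and 63.7 in astrocytes, 26.5, 95.9 and 28.4 in OPC and 8.88 and 19.7 in ependymal cells. Every library of the macrophage classes lay above every library of the other classes, and both ependymal libraries lay below all others. The OPC value of replicate 2 rests on 7 UMIs and the ependymal value of replicate 1, at 8.88 CPM, on 3. Against the mean of the other 5 classes on the log2 scale, which is how each class is tested below, the change was 4.04 ± 0.17 in microglia (adjusted p = 2.3e-16), 4.09 ± 0.20 in border macrophages (adjusted p = 2.3e-14) and -3.58 ± 0.37 in ependymal cells (adjusted p = 1.8e-08). Errors of fitted changes here and below are approximate standard errors, the size of the change over the square root of its F statistic. A difference between microglia and border macrophages was not called (-0.04 ± 0.26, adjusted p = 0.95).

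Cd63, a tetraspanin of late endosomes, lysosomes and exosomes, had its own pattern. It stood at 2114 and 1609 CPM in border macrophages and 1309 and 1265 in ependymal cells of replicates 1 and 3. It stood at 943, 812 and 1184 in microglia, 801, 654 and 968 in astrocytes, 415, 369.8 and 427 in OPC and 29.2, 18.7 and 48.97 in endothelial cells of replicates 1, 2 and 3. In CPM, endothelial cells lay below every other library and ependymal cells above every astrocyte, microglial and OPC library. With TMM the mean was 1430 in microglia and 1163 in ependymal cells, so the order of these classes turned. The fitted log2 change was -4.73 ± 0.26 in endothelial cells (adjusted p = 3.6e-14), the largest fall of any member there, and 1.16 ± 0.21 in ependymal cells (adjusted p = 5.6e-05), where most members were lower.

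Lamp1 and Lamp2, the most abundant glycoproteins of the lysosomal membrane, ranked the classes in the same order in CPM. Lamp1 stood at 1375 and 1353 CPM in border macrophages of replicates 1 and 3, 914, 921 and 1073 in microglia, 729, 745 and 823 in astrocytes and 461, 493 and 509 in OPC of replicates 1, 2 and 3. It stood at 453 and 432 in ependymal cells and 346, 290.2 and 341 in endothelial cells. The macrophage classes and astrocytes did not overlap with each other, and endothelial cells lay lowest in CPM, while with TMM OPC did. Lamp2, whose isoform LAMP2A serves chaperone-mediated autophagy, stood at 375 and 435 in border macrophages, 337, 314 and 382 in microglia and 223, 198 and 215 in astrocytes. It stood at 164, 260.3 and 155 in OPC, 121 and 154 in ependymal cells and 89.4, 93.9 and 83.4 in endothelial cells. Its macrophage classes overlapped, OPC overlapped with astrocytes, and endothelial cells again lay lowest. The fitted log2 change in microglia was 1.37 ± 0.14 for Lamp1 (adjusted p = 1.3e-08) and 1.58 ± 0.14 for Lamp2 (adjusted p = 7.9e-10), and in endothelial cells -1.03 ± 0.17 (adjusted p = 1.2e-05) and -1.28 ± 0.17 (adjusted p = 6.2e-07). Reads were not assigned to isoforms, so LAMP2A was not measured by itself.

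Scarb2 (LIMP-2), the receptor that carries glucocerebrosidase to lysosomes, and Npc1, which exports cholesterol, were singled out after their values were seen, because astrocytes stood high in both. Scarb2 stood at 167, 180.3 and 152 CPM in astrocytes and 147, 151 and 136 in microglia of replicates 1, 2 and 3, against 50.99, 46.2 and 55.7 in endothelial cells. Npc1 stood at 146, 164 and 149 in OPC, 128, 76.03 and 98.1 in astrocytes, 63.4, 61.02 and 64.8 in microglia and 17.7, 19.6 and 21.5 in endothelial cells. Border macrophages and ependymal cells had Npc1 means of 89.34 and 47.66 CPM. For Npc1 in CPM the OPC libraries lay above all others and the endothelial libraries below all others. With TMM the Npc1 means were 104.24 in OPC, 100.52 in border macrophages, 97.14 in astrocytes and 92.04 in microglia. The lead of OPC in Npc1 was thus narrow on that scale, and border macrophages stood above astrocytes. The fitted log2 change was 0.76 ± 0.17 in OPC (adjusted p = 5.3e-04), 0.72 ± 0.14 in astrocytes (adjusted p = 1.1e-04) and -1.96 ± 0.16 in endothelial cells (adjusted p = 1.0e-10), and that of Scarb2 in astrocytes was 0.81 ± 0.14 (adjusted p = 3.1e-05).

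**Figure D3:**
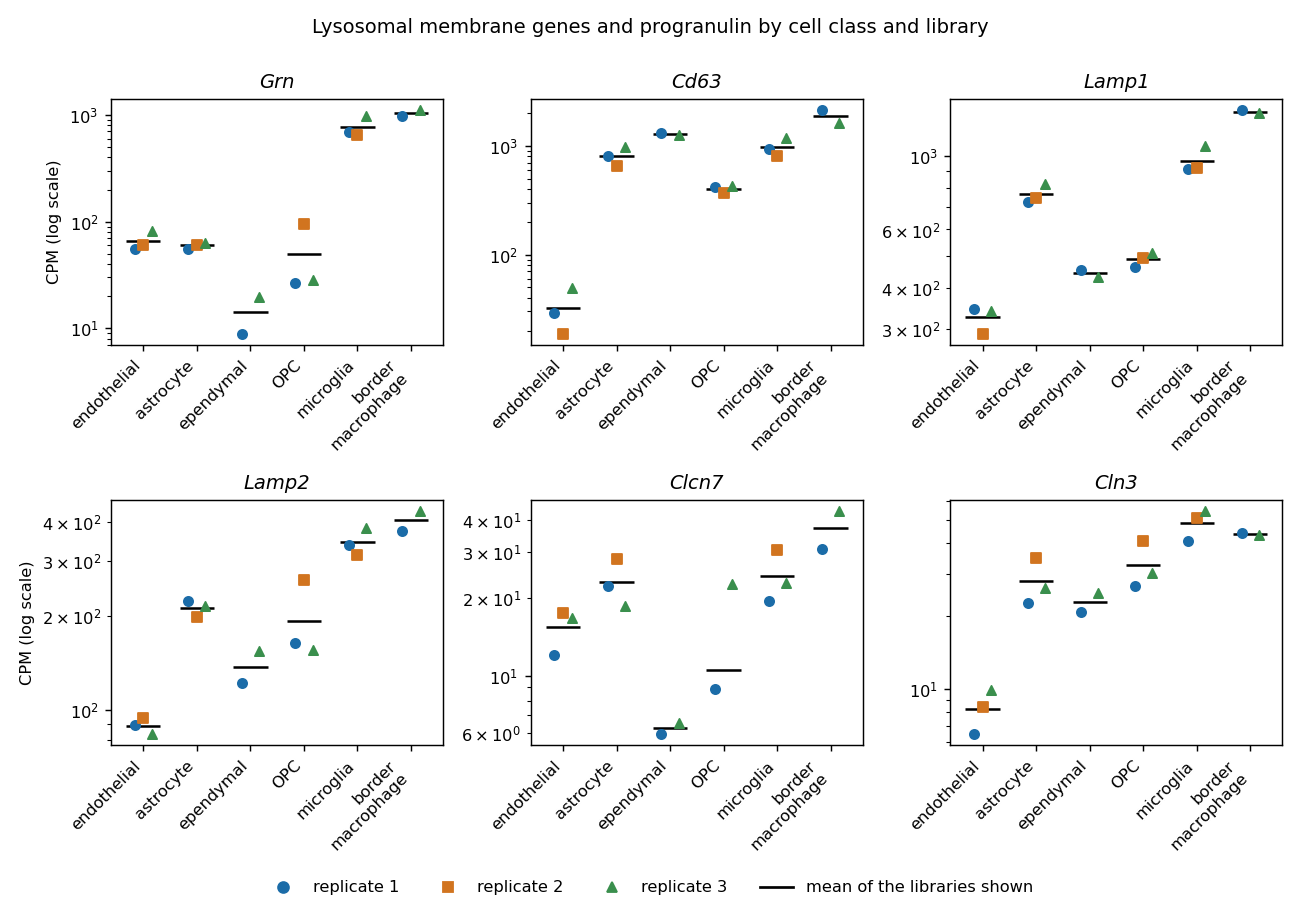
CPM (y axis, log scale) of Grn, Cd63, Lamp1, Lamp2, Clcn7 and Cln3 in 6 cell classes (x axis), with a point for each library and a line at the mean; libraries at 0 are not drawn on the log scale (OPC of replicate 2 for Clcn7). Border macrophages and microglia lead for Grn, Lamp1 and Lamp2, and endothelial cells are lowest for Cd63.

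Among the channels, transporters and their partners, levels were low and most orders overlapped. Clcn7, the chloride-proton exchanger of lysosomes, stood at 30.8 and 43.5 CPM in border macrophages, 19.4, 30.5 and 22.8 in microglia and 22.2, 28.2 and 18.6 in astrocytes. It stood at 12, 17.5 and 16.7 in endothelial cells, 8.84, 0 and 22.7 in OPC and 5.92 and 6.57 in ependymal cells. Ostm1, the beta subunit of that exchanger, stood at 51.8, 95.9 and 35.9 in OPC, 31.6, 30.4 and 25.03 in astrocytes and 26.95 and 38.04 in border macrophages. Ostm1 was at 20.5, 29.4 and 19.2 in microglia, 16.5, 18.9 and 15.1 in endothelial cells and 2.96 and 6.57 in ependymal cells. In OPC the fitted log2 change was -0.97 ± 0.36 for Clcn7 (adjusted p = 0.027) and 0.80 ± 0.24 for Ostm1 (adjusted p = 0.007). The call for Clcn7 in OPC was lost with DESeq2 and with total-UMI scaling, and its sign turned under both other marker rules, to 0.81 with the strict rule and 0.35 with 2 of 3 markers.

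Cln3 and Mfsd8, genes of the neuronal ceroid lipofuscinoses that encode lysosomal membrane proteins, differed in pattern. Cln3 stood at 40.8, 50.9 and 54.6 CPM in microglia and 44.3 and 43.5 in border macrophages, against 6.48, 8.38 and 9.89 in endothelial cells, 22.7, 34.8 and 26.2 in astrocytes, 26.5, 41.1 and 30.3 in OPC and 20.7 and 24.96 in ependymal cells. Mfsd8 stood at 17.7, 17.4 and 13.3 in astrocytes, 3.15, 3.39 and 3.35 in microglia, 5.05, 5.75 and 7.88 in endothelial cells, 22.7, 0 and 9.45 in OPC, 0 and 21.7 in border macrophages and 0 and 6.57 in ependymal cells. Endothelial cells lay below all other libraries for Cln3, while Mfsd8 was at 0 in a library of each of the 3 smallest classes. The fitted log2 change was 1.68 ± 0.15 in microglia for Cln3 (adjusted p = 4.1e-10) and 1.27 ± 0.36 in astrocytes for Mfsd8 (adjusted p = 0.005).

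Mcoln1, the calcium channel TRPML1, stood at 8.84, 54.8 and 17.02 CPM in OPC, 15.4 and 38.04 in border macrophages and 13.7, 18.9 and 15.3 in endothelial cells. It stood at 12.6, 19.2 and 10.1 in microglia, 10.1, 13.03 and 9.67 in astrocytes and 5.92 and 6.57 in ependymal cells, and every class but the ependymal overlapped with another. Without replicate 2 the OPC mean of Mcoln1 was 12.9 CPM, below the 26.7 of border macrophages. Ctns, the cystine exporter, stood at 13.5 and 32.6 in border macrophages, 18.7, 22.6 and 15.96 in microglia and 12.9, 8.69 and 10.4 in astrocytes. It stood at 13.9, 0 and 15.1 in OPC, 6.57, 8.62 and 11.4 in endothelial cells and 2.96 and 6.57 in ependymal cells, and its fitted log2 change in microglia was 1.42 ± 0.25 (adjusted p = 2.8e-05). Tmem192, a lysosomal membrane protein widely used to tag lysosomes, stood at 32.7 and 43.5 in border macrophages, 19.2, 16.95 and 23.8 in microglia and 11.8, 11.01 and 12.4 in endothelial cells. It stood at 11.6, 6.52 and 18.3 in astrocytes, 14.8 and 7.88 in ependymal cells and 3.79, 13.7 and 17.02 in OPC, with both border macrophage libraries above all others. Slc38a9, the arginine sensor of the mTORC1 pathway, had class means of 9.21 to 63.4 CPM, lowest in ependymal cells. The highest mean, of OPC, rests on 9 UMIs in replicate 2, and without that library it was 33.4 CPM, below the 39.5 of astrocytes. Slc38a9 was called higher in astrocytes (0.78 ± 0.26, adjusted p = 0.015) and not in OPC (0.41 ± 0.36, adjusted p = 0.39). Tmem55b, which recruits a dynein adaptor to lysosomes, had class means of 31.6 to 67.4.

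For the Vo sector, 2 paralogue pairs were used unequally between classes. Each UMI of this 3′ chemistry counts a molecule whatever its length, so the members of a pair can be set on the same scale. Atp6v0a1 and Atp6v0a2 encode alternative forms of the large a subunit, which guides the pump to its membrane. Atp6v0a1 stood at 100.1 and 103 CPM in border macrophages, 73.7, 79.7 and 69.4 in endothelial cells, 56.8, 71.7 and 44.2 in astrocytes, 59.3, 54.8 and 51.1 in OPC, 50.2, 37.3 and 49.97 in microglia and 26.7 and 17.1 in ependymal cells. Atp6v0a2 stood at 5.78 and 10.9 in border macrophages, 33.04, 29.9 and 31.9 in endothelial cells, 71.9, 71.7 and 70.8 in astrocytes, 58.1, 95.9 and 54.8 in OPC, 52.6, 54.2 and 55.1 in microglia and 23.7 and 28.9 in ependymal cells. Border macrophages were thus highest of all in a1 and lowest of all in a2, which rests on 3 and 2 UMIs there. The a1 share of the pair was 92.5% ± 2.88 (SD, n = 2) in border macrophages and 70.1% ± 2.29 (SD, n = 3) in endothelial cells, against 45.7% ± 4.36 (SD, n = 3) in microglia, 45.04% ± 11.2 (SD, n = 2) in ependymal cells, 45.04% ± 7.60 (SD, n = 3) in OPC and 44.2% ± 5.78 (SD, n = 3) in astrocytes. Microglia and border macrophages, both of macrophage lineage, differed in Atp6v0a2 by a fitted log2 change of 3.24 ± 0.42 (adjusted p = 4.1e-06), which held in all 15 alternatives, and in Atp6v0a1 by -0.72 ± 0.25 (adjusted p = 0.048). With at most 10% mitochondrial UMIs the a1 share in border macrophages was 97.3%.

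Atp6v0e and Atp6v0e2 encode the small e subunit, and the second had the third-widest range of the members. Atp6v0e2 stood at 131, 109.6 and 112 CPM in OPC, 107 and 99.8 in ependymal cells, 69.3, 49.96 and 60.4 in astrocytes, 31.5, 25.4 and 31.2 in endothelial cells, 15.4 and 10.9 in border macrophages and 7.08, 1.13 and 3.67 in microglia. Neighbouring classes did not overlap at any step of that order, though with TMM ependymal cells stood above OPC. Atp6v0e stood at 395 and 342 in border macrophages, 259, 301 and 316 in OPC, 297, 296 and 281 in microglia, 235, 249.8 and 283 in astrocytes, 252 and 252 in ependymal cells and 186, 159.7 and 199 in endothelial cells. The share of Atp6v0e in the pair was 98.7% ± 0.973 (SD, n = 3) in microglia, 96.6% ± 0.480 (SD, n = 2) in border macrophages, 86.1% ± 0.499 (SD, n = 3) in endothelial cells, 80.98% ± 3.30 (SD, n = 3) in astrocytes, 71.2% ± 4.21 (SD, n = 3) in OPC and 70.9% ± 0.986 (SD, n = 2) in ependymal cells. The fitted log2 change of Atp6v0e2 was -2.70 ± 0.25 in microglia (adjusted p = 1.6e-09), 1.51 ± 0.20 in OPC (adjusted p = 9.1e-07) and 1.66 ± 0.23 in ependymal cells (adjusted p = 1.5e-06).

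Other Vo genes were read as follows. Atp6v0b, which encodes a ring subunit, had class means of 161 to 615 CPM, highest in border macrophages and lowest in endothelial cells (microglia and ependymal cells with TMM). Atp6v0d1, the subunit between ring and stalk, had means of 42.9 to 106, highest in OPC (in microglia with TMM) and lowest in ependymal cells. Atp6v0c stood at 5.78 and 16.3 in border macrophages, 11.3, 6.78 and 6.39 in microglia, 7.58, 0 and 5.67 in OPC, 1.95, 2.63 and 1.37 in endothelial cells, 3.48, 0 and 1.55 in astrocytes and 0 and 1.31 in ependymal cells. This gene encodes the main ring subunit, and its level was far below that of Atp6v0b in every class. The annotation lists 2 processed pseudogenes of Atp6v0c and 1 of Cd63, none of them a row of the count tables. Whether reads were shared with such copies was not tested, so both levels carry that doubt.

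**Figure D4:**
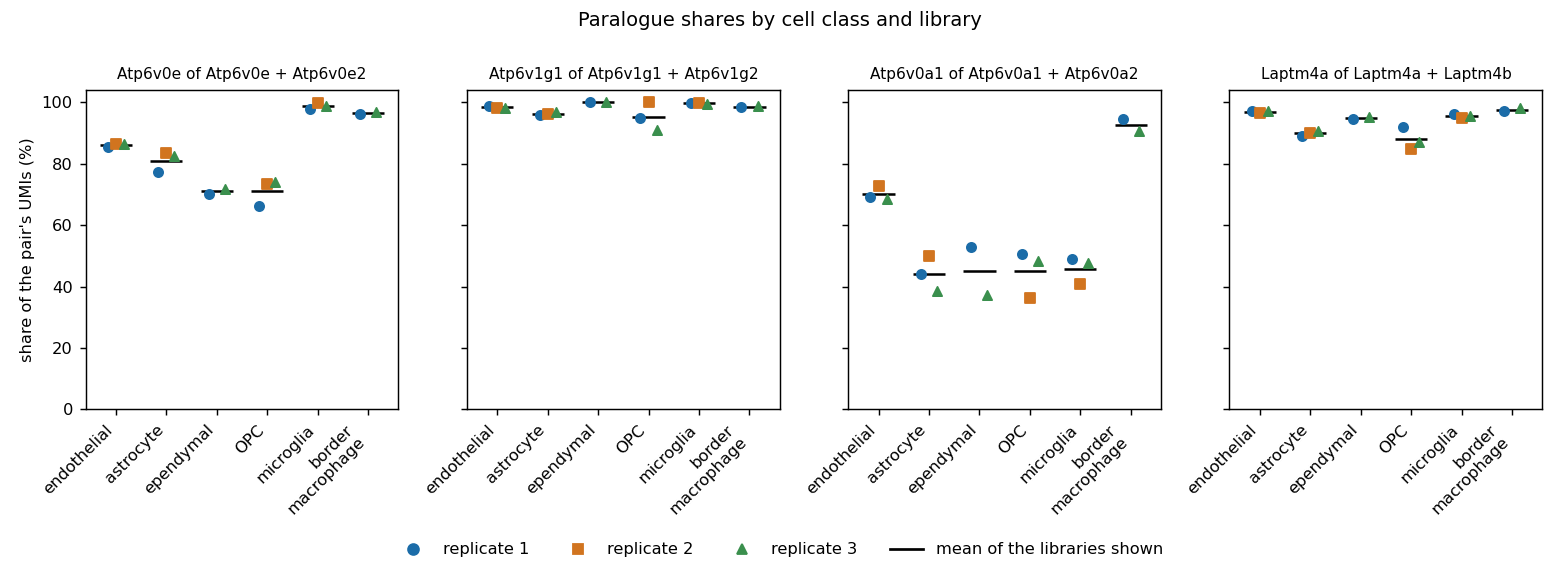
Share of the first gene in the summed UMIs of each of 4 paralogue pairs (y axis, percent from 0) in 6 cell classes (x axis), with a point for each library and a line at the mean. The Atp6v0a1 share is highest in border macrophages, and the Atp6v0e share runs from near 71% in OPC and ependymal cells to near 99% in microglia.

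In the V1 sector, the leading class differed between subunits. Atp6v1c1, the C subunit that links V1 to Vo, stood at 136, 118 and 96.7 CPM in microglia and 69.3 and 43.5 in border macrophages. It stood at 42.9, 39.1 and 34.9 in astrocytes, 38.5 and 34.2 in ependymal cells, 28.04, 30.2 and 32.4 in endothelial cells and 32.8, 13.7 and 24.6 in OPC. Microglia overlapped with no other class. The fitted log2 change was 2.28 ± 0.14 in microglia (adjusted p = 4.8e-13) and 1.33 ± 0.27 between microglia and border macrophages (adjusted p = 9.1e-04). Atp6v1a, the catalytic A subunit, stood at 246 and 163 in border macrophages, 199.9, 212 and 135 in microglia and 126, 109.6 and 134 in OPC. It stood at 105, 109 and 108 in astrocytes, 109, 119 and 85.7 in endothelial cells and 94.8 and 72.3 in ependymal cells. The lower library of each macrophage class, replicate 3, still lay above every library of the other 4 classes, though microglia only just above OPC. Its fitted log2 change in microglia was 1.18 ± 0.15 (adjusted p = 4.8e-07).

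Atp6v1g1 and Atp6v1g2 encode forms of the G subunit of the stalk, the second being the form known from neurons. Atp6v1g1 stood at 464 and 424 CPM in border macrophages, 398, 384 and 401 in microglia, 346 and 327 in ependymal cells, 251, 219 and 227 in OPC, 230.3, 175 and 239.8 in endothelial cells and 182, 163 and 221 in astrocytes. Atp6v1g2 stood at 13.9, 0 and 22.7 in OPC, 7.79, 6.52 and 7.25 in astrocytes, 7.70 and 5.43 in border macrophages, 2.62, 3.35 and 4.26 in endothelial cells and 1.57, 1.13 and 2.23 in microglia. In ependymal cells no UMI of Atp6v1g2 was counted, so its fitted changes, which set each class against the others, depend on the prior count of the fit and are not given. A count of 0 allows up to 8.88 and 3.94 CPM in replicates 1 and 3. Atp6v1g1 took 95.2% (OPC) to 99.6% (microglia) of the pair on average, and all of its UMIs in ependymal cells. In OPC, where Atp6v1g2 was called higher but was at 0 in replicate 2, the neuronal markers were also at their highest, at 631 to 1356 CPM, and their part in it was not tested.

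The remaining V1 genes were Atp6v1b2, the B subunit paired with A, with class means of 34.3 to 98.4 CPM, and Atp6v1h, a regulatory subunit, with 43.7 to 119, and OPC had the highest mean of both. In replicate 2 the OPC values of these were 151 and 178, from 11 and 13 UMIs. Without that library the OPC mean of Atp6v1b2 was 72.2 CPM, below the 96.1 of border macrophages, and that of Atp6v1h 88.9, still the highest in CPM. Neither was called in OPC (adjusted p = 0.84 and adjusted p = 0.33). Atp6v1d, a subunit of the central shaft, had means of 49.5 to 146, highest in ependymal cells (in microglia with TMM) and lowest in OPC. Atp6v1e1, a stalk subunit, had means of 94.3 to 162, highest in astrocytes (in microglia with TMM), and Atp6v1f, a shaft subunit, had 204 to 428, highest in border macrophages. Atp6ap2, the accessory protein also known as the prorenin receptor, stood at 259.9 and 245 in border macrophages, 265, 235 and 216 in microglia and 107 and 123.5 in ependymal cells. It stood at 117, 106 and 109 in astrocytes, 145, 68.5 and 96.4 in OPC and 75.1, 72.6 and 56.5 in endothelial cells. Both macrophage classes lay above all other libraries, and the fitted log2 change in microglia was 1.63 ± 0.15 (adjusted p = 7.1e-10). The other accessory protein, Atp6ap1, which helps to assemble the pump, had means of 90.2 to 217, highest in border macrophages.

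The last pair was Laptm4a and Laptm4b, multi-span membrane proteins of late endosomes and lysosomes. Laptm4a stood at 1025 and 966 CPM in ependymal cells, 609.7, 747 and 710.2 in astrocytes, 742, 626 and 685 in endothelial cells, 522 and 538 in border macrophages, 449, 452 and 408 in OPC and 347, 358 and 366 in microglia. Laptm4b stood at 74.9, 82.5 and 72.7 in astrocytes, 39.1, 82.2 and 60.5 in OPC, 59.2 and 49.9 in ependymal cells, 21.8, 22.5 and 20.6 in endothelial cells, 13.4, 19.2 and 16.9 in microglia and 15.4 and 10.9 in border macrophages. In CPM microglia were the lowest class for Laptm4a, while with TMM OPC were, and the fit called Laptm4a lower in OPC (-1.17 ± 0.18, adjusted p = 6.3e-06) and made no call in microglia (-0.20 ± 0.16, adjusted p = 0.33). For Laptm4b the macrophage classes had the lowest means. The share of Laptm4a in the pair lay between 87.9% ± 3.75 (SD, n = 3) in OPC and 97.6% ± 0.627 (SD, n = 2) in border macrophages. Laptm4b had a fitted log2 change of 1.39 ± 0.15 in astrocytes (adjusted p = 3.5e-08) and -0.58 ± 0.19 in microglia (adjusted p = 0.011).

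Turning to each class against the mean of the other 5, microglia had the most members higher with TMM. Border macrophages had as many as microglia with RLE (24), DESeq2 (24) and total UMIs (16). Of all 12277 genes tested, 1979, 1969 and 1511 were then higher in border macrophages, against 3219, 3121 and 2270 in microglia. Of the 35 members tested, 28 rose in microglia and 2 fell (Atp6v0e2 and Laptm4b), where 32.5% of all tested genes rose and 16.8% fell. The median fitted log2 change was 1.06 over the members and 0.11 over all tested genes, and 31 of the 35 lay above the all-gene median. Both the v-ATPase genes (15 of 17 higher, median 0.89) and the others (13 of 18 higher, median 1.16) were included. The TMM scaling factors were 0.616 to 0.754 in microglia and 1.39 to 1.64 in OPC. With total UMIs in place of TMM factors, 16 members rose and 4 fell in microglia, the medians were 0.42 over the members and -0.53 over all genes, and 31 of 35 members again lay above the latter. Npc1 and Atp6v0a1 then turned to -0.06 and -0.19, and 12 of the 28 calls were lost. Of all genes called in microglia, 66.0% were higher with TMM, 52.8% with RLE, 33.5% with total UMIs and 43.1% with DESeq2. The 17 calls that held in all 15 alternatives included Grn, Cd63, Lamp1, Lamp2, Cln3, Ctns, Atp6ap2, Atp6v1a and Atp6v1c1.

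In border macrophages, 21 of the 35 members rose and 3 fell (Atp6v0a2, Atp6v0e2 and Laptm4b), against 14.1% and 12.1% of all tested genes. The median log2 change was 0.89 over the members and -0.38 over all genes. Grn, Cd63 (2.25 ± 0.20, adjusted p = 1.5e-09) and Tmem192 (1.73 ± 0.41, adjusted p = 0.002) had the largest rises among those called. Of the 24 calls in this class, 8 held in every alternative setting. Grn and Cd63 were among these, and Tmem192 was not. Without replicate 1, which leaves this class a single library that is taken to vary like the others, the median was 0.97 over the members and -0.41 over all genes. Of all genes called, 53.9% were higher with TMM, 40.8% with total UMIs and 71.5% with DESeq2.

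Microglia and border macrophages were also compared directly. Of 35 tested, 3 were higher in microglia (Atp6v0a2, Atp6v1c1 and Scarb2) and 1 was higher in border macrophages (Atp6v0a1), where 11.9% of all tested genes were higher in microglia and 4.16% in border macrophages, so the members' shares were near the background. The median log2 change was 0.08 over the members and 0.47 over all genes. The call for Scarb2 was lost with RLE, with total UMIs and with DESeq2 (adjusted p = 0.34 to 0.41). The call for Atp6v0a1 was lost without the replicate block (adjusted p = 0.064), without replicate 1 (0.32), with at most 10% mitochondrial UMIs (0.075), with Scrublet doublets kept (0.052) and with the strict marker rule (0.091), and 0 members were then higher in border macrophages in each. With TMM, 74.0% of all called genes were higher in microglia, with RLE 52.0%, with total UMIs 49.2% and with DESeq2 45.4%. A call missed here does not show that the classes are alike, since border macrophages had 2 libraries.

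**Figure D5:**
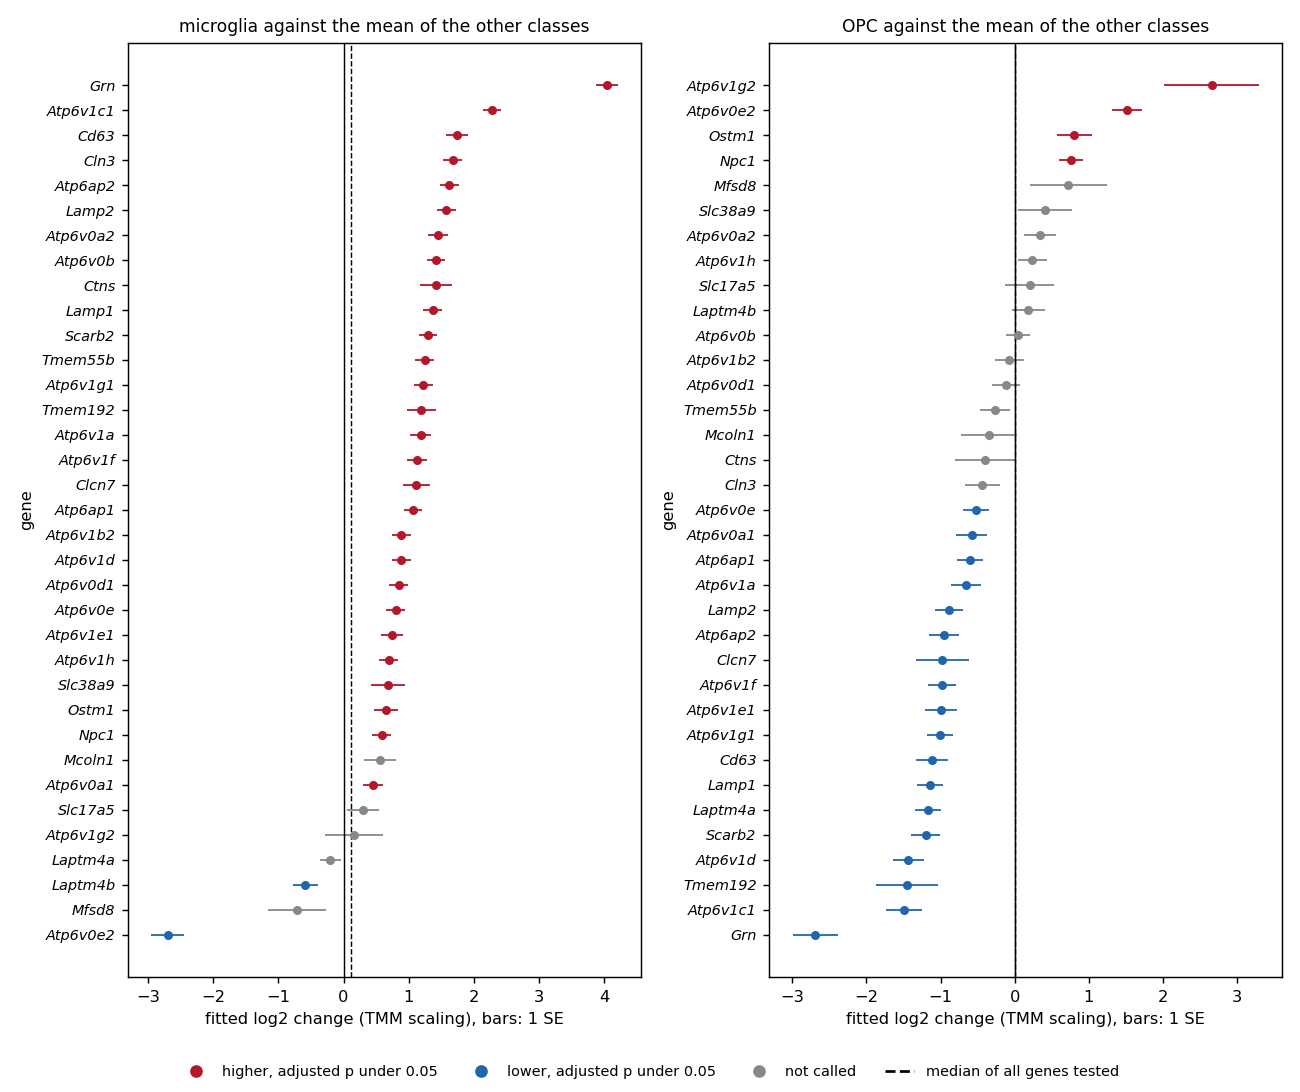
Fitted log2 change with TMM scaling (x axis, bars of 1 standard error) of the 35 tested members (y axis) in microglia and in OPC, each against the mean of the other classes, with red for called higher, blue for called lower, grey for not called and a dashed line at the median of all genes tested. In microglia 28 members are called higher, and in OPC 18 are called lower with Atp6v1g2, Atp6v0e2, Ostm1 and Npc1 called higher; the position of Atp6v1g2 depends on the prior count.

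In OPC, 4 members rose (Atp6v1g2, Atp6v0e2, Ostm1 and Npc1) and 18 fell, against 26.1% and 21% of all tested genes. The median log2 change was -0.53 over the members and 0.00 over all genes. With Atp6v1g2 left out, the members' medians ran from -0.75 in ependymal cells to 1.09 in microglia, and that of OPC was -0.55. The falls were led by Grn (-2.69 ± 0.30), Atp6v1c1 (-1.49 ± 0.25, adjusted p = 1.9e-05), Tmem192 (-1.46 ± 0.42, adjusted p = 0.006) and Atp6v1d. Of the 22 calls in OPC, 9 held in every alternative setting. Grn, Atp6v1c1 and Atp6v1d were among these, and Tmem192 was not. With total UMIs alone, 13 members rose and 7 fell, the medians were 0.14 over the members and 0.67 over all genes, and 82.3% of all called genes were higher, against 55.4% with TMM. The direction of the OPC counts thus differed between scalings, while the members' median lay below that of all genes in both. Atp6ap1, Atp6v0a1, Atp6v0e and Atp6v1a turned from falls to values of 0.05, 0.09, 0.14 and 0.01.

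In endothelial cells, 2 members rose (Atp6v0a1 and Laptm4a) and 15 fell, against 32.1% and 18.4% of all tested genes. The median log2 change was -0.34 over the members and 0.11 over all genes. Cd63, Npc1, Cln3 (-1.93 ± 0.17, adjusted p = 7.4e-10) and Lamp2 had the largest falls. Atp6v0a1 rose by 0.69 ± 0.14 (adjusted p = 2.7e-04) and held in all 15 alternatives, while Laptm4a (0.42 ± 0.15, adjusted p = 0.023) lost its call with RLE, total UMIs and DESeq2. Of all called genes, 63.6% were higher with TMM, 52.2% with RLE and 41.1% with DESeq2. Erythrocyte RNA was at its highest in this class, and its part in these results was not tested. With haemoglobin, ribosomal and mitochondrial genes left out 2 members rose and 17 fell, where 3707 and 2379 of all 12151 genes tested did.

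In astrocytes, 10 members rose and 7 fell, against 29.8% and 22.9% of all tested genes, so the members' shares were near the background. The median log2 change was -0.11 over the members and 0.06 over all genes. Of the 18 genes outside the pump 7 were higher and 1 (Grn) lower at a median of 0.24. Of the 17 v-ATPase genes 3 were higher and 6 lower at a median of -0.34, and the difference between these groups was not tested. The rises were Laptm4b, Mfsd8, Scarb2, Slc38a9, Npc1, Cd63 and Ostm1 outside the pump and Atp6v1g2, Atp6v0a2 and Atp6v0e2 of the pump. Atp6v0a2 rose by 1.21 ± 0.16 (adjusted p = 6.5e-07) and Atp6v1g1 fell by 0.76 ± 0.16 (adjusted p = 3.7e-04) on the log2 scale. With at most 10% mitochondrial UMIs, 11 members rose and 3 fell, where 3578 and 2195 of all 12270 genes tested did. In the main fit 3659 and 2817 of all 12277 did. Without replicate 1 the median was 0.01 over the members and 0.22 over all genes. The median mitochondrial share of astrocyte barcodes was 10.0%, 12.3% and 11.5% in replicates 1, 2 and 3.

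In ependymal cells, 5 members rose (Atp6v0e2, Cd63, Laptm4a, Laptm4b and Atp6v1d) and 20 fell, against 24.9% and 17.3% of all tested genes. The median log2 change was -0.75 over the members and -0.07 over all genes. The falls included Grn, Ostm1 (-2.43 ± 0.43, adjusted p = 5.1e-05), Clcn7 (-1.88 ± 0.48, adjusted p = 0.003) and Atp6v0a1 (-1.82 ± 0.29, adjusted p = 1.3e-05). Of the 25 calls in ependymal cells, 5 held in every alternative setting: Grn, Cd63, Ostm1, Atp6v0a1 and Atp6v0b. With the double barcodes counted as ependymal, 5 members rose and 25 of 36 fell, among 14131 genes tested against 12277 in the main fit. Such a changed count is not by itself a trait of the members. With these barcodes the change was -3.45 for Grn, 1.25 for Cd63, 1.43 for Atp6v0e2, -2.04 for Ostm1, -1.02 for Clcn7 and -1.85 for Atp6v0a1, each still called. The median was then -0.67 over the members and 0.09 over all genes. With no barcode that held 2 markers of another class, 2 members rose and 10 fell, where 1586 and 1004 of all 11191 genes tested did. With total UMIs 5 members rose and 13 fell, where 3576 and 1523 of all 12277 genes tested did. In the main fit 3056 and 2120 of all genes did. Of all called genes, 59.0% were higher with TMM, 70.1% with total UMIs and 69.3% with DESeq2.

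Astrocytes and ependymal cells share a neuroepithelial origin and were compared directly. Of 35 members, 15 were higher in astrocytes and 2 (Atp6v1d and Atp6v1g1) in ependymal cells, against 19% and 21.6% of all tested genes. Their median log2 change was 0.61 over the members and 0.09 over all genes. Astrocytes were higher in Ostm1 (2.40 ± 0.45, adjusted p = 1.1e-04), Slc38a9 (2.29 ± 0.58, adjusted p = 0.002), Grn (2.07 ± 0.41, adjusted p = 2.3e-04) and Clcn7 (1.83 ± 0.50, adjusted p = 0.004). With the double barcodes counted as ependymal, 21 of 36 were higher in astrocytes and 2 in ependymal cells, among 14131 genes tested against 12277 in the main fit. That changed count is not by itself a trait of the members. With these barcodes the 4 changes were 2.09, 1.98, 2.00 and 1.06. The median was then 0.64 over the members and 0.03 over all genes. Check markers of astrocytes summed to 2188 and 2444 CPM in the ependymal cells of replicates 1 and 3, against 11839 to 13620 in astrocytes, and those of smooth muscle to 551 and 724, against 0 to 57.04 in the profiles of other classes. Their part in the ependymal results was not tested. Calls for Atp6v0a2, Npc1 and Ostm1 held in all 15 alternatives, and without barcodes that held 2 markers of another class 10 members were higher in astrocytes and 0 in ependymal cells. There 11191 genes were tested, and these counts too are not by themselves a trait of the members. Under that marker rule the median was 0.72 over the members and 0.42 over all genes. All one-class comparisons and the direct ones share their profiles, so their counts are not independent of each other.

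A list of 55 related lysosomal and v-ATPase genes that are not among the 36 was read beside them, and 44 passed the filter. Of these, 29 rose and 6 fell in microglia, where 32.5% and 16.8% of all tested genes did, and 18 rose and 3 fell in border macrophages, against 14.1% and 12.1%. The largest rises in microglia were Slc15a3, a histidine and peptide transporter, at 602, 485 and 329 CPM against 0 to 5.25 in the classes other than macrophages, with no fitted size given because OPC were at 0, Laptm5 (log2 change 6.54 ± 0.19, adjusted p = 3.4e-19) and Slc11a1, the metal exporter NRAMP1 (log2 change 5.58 ± 0.17, adjusted p = 6.8e-19). In border macrophages the macrosialin gene Cd68 led (log2 change 5.96 ± 0.23, adjusted p = 2.8e-16). Tcirg1, which encodes the a3 form of the pump's a subunit, stood at 141, 131 and 137 in microglia and 65.5 and 86.95 in border macrophages (log2 change 1.25 ± 0.28, adjusted p = 0.002 between them). Microglia were thus called above border macrophages in both the a2 and the a3 form.

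In endothelial cells 5 of the 44 related genes rose and 19 fell, against 32.1% and 18.4% of all tested genes. In astrocytes 15 rose and 16 fell, against 29.8% and 22.9%, in ependymal cells 2 and 21, against 24.9% and 17.3%, and in OPC 6 and 20, against 26.1% and 21%. Astrocytes were led by Abcb9, a lysosomal peptide transporter, at 51.03, 45.6 and 32.1 CPM against 0 to 8.20 elsewhere (log2 change 3.63 ± 0.29, adjusted p = 1.0e-10), Abca2 (log2 change 1.92 ± 0.19, adjusted p = 6.1e-09) and Tpcn1, a lysosomal cation channel (log2 change 1.82 ± 0.17, adjusted p = 1.8e-09). Endothelial cells were higher in Ncoa7, a v-ATPase-binding protein (log2 change 2.08 ± 0.21, adjusted p = 6.3e-09), and in Tfeb (log2 change 1.27 ± 0.19, adjusted p = 2.5e-06) and lower in Mitf (log2 change -2.02 ± 0.24, adjusted p = 7.5e-08), both of which encode factors that bind the CACGTG core. Tfeb stood at 38.1, 28.97 and 44.6 in endothelial cells and 34.3, 32.8 and 28.9 in microglia, and Mitf at 3.33, 5.27 and 4.50 and 26.9, 29.4 and 30.8. Ependymal cells were higher in Rogdi (log2 change 1.37 ± 0.21, adjusted p = 8.8e-06) and Igf2r (log2 change 1.52 ± 0.43, adjusted p = 0.006), and OPC in Clcn6 (log2 change 1.77 ± 0.29, adjusted p = 1.3e-05). Between astrocytes and ependymal cells, 16 of the 44 were higher in astrocytes and 1, Rogdi, in ependymal cells, against 19% and 21.6% of all tested genes. Between microglia and border macrophages 11 were higher in microglia and 2 in border macrophages, against 11.9% and 4.16%.

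The members lie on many chromosomes, and some share bases with a neighbour. In the mm10 annotation Grn lies at chr11:102430315-102437048, Cd63 at chr10:128900989-128912822, Atp6v0e2 at chr6:48537615-48541801, Atp6v0a1 at chr11:101009452-101063719 and Atp6v0a2 at chr5:124628576-124724455. Exons of 14 members overlap exons of a gene on the opposite strand, among them Lamp1, Grn, Atp6v0a2, Cln3 and Atp6v1g2. Use of strand in counting: not given in the sources used here. If it was not used, reads of such a pair cannot be told apart.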

How the data were processed

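The deposited tables hold raw UMI counts per gene and cell barcode for 3 libraries. Per the submitters' processing notes, the authors used Cell Ranger and the mm10 build. The version and the annotation are not given in the sources used here. Symbols were matched to the GENCODE annotation of mm10 for coordinates. The members and lists were chosen with earlier results of these data known. Members were named with per-library values if they passed the test of any class difference and were among the 12 widest ranges, stood in a paralogue pair or defined the list (Lamp1, Lamp2, Grn, Mcoln1, Clcn7, Atp6ap2, Atp6v1a, Atp6v0c). Scarb2 and Npc1 met none of these rules and were added after their values were seen. Of the related list, at most the 3 largest called changes in each direction were named per comparison.

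The limits for a barcode were 500 UMIs and 300 genes or more, with mitochondrial UMIs no higher than 20% (6412, 954 and 5065 in replicates 1, 2 and 3). Scrublet (scanpy 1.11.5, assumed rate 0.06) removed 172, 9 and 135 of them as doublets. Kept barcodes numbered 6240, 945 and 4930. Classes were formed as stated in the opening, and UMIs were summed per library and class where at least 10 barcodes were present, which gave 16 sums. They were fitted together with edgeR 4.0.16 (limma 3.58.1, R 4.3.3): TMM scaling, filterByExpr, library as a block, quasi-likelihood tests and Benjamini-Hochberg adjustment over all 12277 genes tested at 0.05. The block rests on each library giving several classes: replicates 1 and 3 gave all 6 and replicate 2 gave 4. Sums and class orders were also computed with TMM-scaled library sizes, a setting chosen after seeing the data. Tests were two-sided, and the script was tested on simulated data. Intervals and limits of a count of 0 cover counting error only. Results were recomputed under 15 other settings, 1 of them (barcodes with all markers of both astrocytes and ependymal cells counted as ependymal) chosen after seeing the data. The others were RLE or no scaling, DESeq2 1.42.0, no filter, no block, each library left out, other limits on barcodes, mitochondrial UMIs, doublets and markers, and some gene classes left out.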

Additional observations from a re-analysis of the deposited data

Results flagged for a closer look

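The 36 genes were also counted in barcodes that entered no comparison. In barcodes of no class, which had a median of 1460, 1157 and 1342.5 UMIs in replicates 1, 2 and 3, they made up 0.53143%, 0.45139% and 0.542231% of the UMIs. In barcodes with all markers of more than a single class, they made up 0.496527%, 0.530859% and 0.468863% in replicates 1, 2 and 3. Both are above the limit that a count of 0 allows, which is why they are listed, and no control sample exists for them. Any set of expressed genes would pass that limit, so passing it shows nothing particular about these barcodes.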

How the results depend on the processing

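Of the 156 member calls in the class comparisons, 62 held in all 15 alternatives. Among them were 11 of the 17 calls in endothelial cells and 8 of the 17 in astrocytes. Leaving out replicate 1 ended the most, with 63 no longer called and 2 of turned sign. Calls over all genes moved with the setting too, in microglia from 3995 higher with TMM to 2270 with total UMIs. A changed count of members below is therefore not by itself a trait of the members. Border macrophages and ependymal cells had 2 libraries each, and genes of few UMIs in the 10 OPC barcodes of replicate 2 were measured with the least precision. The cause of a moved value was not tested, except that left-out libraries and stricter markers leave fewer counts. The replicate block changed 13 calls: with no replicate block, members called higher in endothelial cells numbered 1 and those higher in border macrophages than in microglia 0.

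With total UMIs, endothelial cells had 1 higher, microglia 16 higher and 4 lower, ependymal cells 13 lower and OPC 13 higher and 7 lower, while 2 were higher in border macrophages than in microglia and 4 higher in ependymal cells than in astrocytes. Npc1 and Atp6v0a1 then turned to -0.060 and -0.19 in microglia, and Atp6ap1, Atp6v0a1, Atp6v0e and Atp6v1a to 0.055, 0.092, 0.14 and 0.012 in OPC. With RLE, endothelial cells had 1 higher, and 4 were higher in ependymal cells than in astrocytes. With DESeq2 these were 1 and 4, and 4 were higher in border macrophages than in microglia. With no filter, 1 was higher in ependymal cells than in astrocytes. With Scrublet doublets kept, 0 were higher in border macrophages than in microglia and the v-ATPase sum of ependymal cells was 1833.

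With no barcode of 2 markers of another class, endothelial cells had 1 higher, astrocytes 4 lower, border macrophages 1 lower and ependymal cells 2 higher and 10 lower. Border macrophages were then higher than microglia in 0 and ependymal cells higher than astrocytes in 0, the Atp6v0e and Laptm4a shares of ependymal cells were 79.6% and 96.5%, and their sums of all members and of the v-ATPase 5113 and 1868. With at least 2 of 3 markers, endothelial cells had 1 higher, ependymal cells 3 higher and 12 lower, and astrocytes were above ependymal cells in 9. The Atp6v0e share was then 85.4% in endothelial cells, 78.8% in ependymal cells and 76.2% in OPC, the Atp6v1g1 share of ependymal cells 99.5%, the Laptm4a share of border macrophages 96.9%, and the ependymal sums 5397 and 2056. Clcn7 in OPC turned to 0.81 and 0.35 under these marker rules.

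With at most 10% mitochondrial UMIs, astrocytes had 3 lower, border macrophages were above microglia in 0 and ependymal cells above astrocytes in 1. The Atp6v0a1 and Atp6v0e shares of border macrophages were then 97.3% and 97.3%, the Atp6v0e share of ependymal cells 72.3%, and the sums of all members and of the v-ATPase 5450.4 and 2019 in astrocytes and 5098 and 1866 in ependymal cells. With the double barcodes as ependymal, the Atp6v1g1 share there was 99.4% and the v-ATPase sum 1715. Without mitochondrial, ribosomal and haemoglobin genes, the sum of all members was 3563 in endothelial cells, 5858 in astrocytes, 8217 in microglia, 10781 in border macrophages, 5705 in ependymal cells and 5165 in OPC, and that of the v-ATPase 1855, 2199.6, 3414, 3896, 2079 and 2680.1, which follows from the smaller total. On the TMM scale, a setting also chosen after seeing the data, the sum of all members was 3256 in endothelial cells, 9730.0 in microglia, 10279 in border macrophages, 4526 in ependymal cells and 3054 in OPC, and that of the v-ATPase 1695 in endothelial cells, 1794 in astrocytes, 4051 in microglia, 3725 in border macrophages, 1649 in ependymal cells and 1587 in OPC.

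With each library left out in turn, members called higher ranged from 1 to 2 in endothelial cells, 8 to 23 in border macrophages and 2 to 5 in ependymal cells. Members called lower ranged from 1 to 5 in astrocytes, 1 to 2 in microglia, 0 to 2 in border macrophages and 10 to 20 in ependymal cells. Microglia were above border macrophages in 1 to 2 and below in 0 to 1, and ependymal cells above astrocytes in 0 to 1. In border macrophages, Atp6v0d1 ranged from -0.039 to 1.17 and Atp6v1e1 from -0.089 to 1.19, with the values below 0 without replicate 1.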
